A study of Mus musculus with 2 samples.

Results

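The subunits of the respiratory chain and of ATP synthase were followed in single cells of the mouse retina, in 1 control library and 1 library from oxygen-induced retinopathy (OIR). Members were taken by symbol: every gene of the files named mt-Nd, mt-Co, mt-Atp or mt-Cytb, or beginning with Ndufa, Ndufb, Ndufc, Ndufs, Ndufv, Uqcr, Cox4 to Cox8 or Atp5. Cox4i1, Cox4i2, Ndufa4, Ndufa4l2, the Ndufaf assembly factors and symbols with -ps or -os were left out. This gave 90 of 31053 genes under 89 symbols, since Atp5o has 2 identifiers and one of them had no UMI. Of these, 77 are encoded in the nucleus (36 of complex I, 8 of complex III, 16 of complex IV and 17 of complex V) and 13 in the mitochondrial genome (7, 1, 3 and 2). All 90 are protein-coding genes of the GENCODE annotation of build mm10. Both libraries came from wild-type C57BL/6 mice at postnatal day 17, with the retinas of 6 mice pooled in each, dissociated with papain and selected with CD11b beads, which hold a surface protein of myeloid cells. The OIR pups and their nursing mother breathed 75% oxygen from day 7 to day 12 and then room air, a treatment known to stop the growth of retinal vessels and to leave the tissue short of oxygen afterwards. The other group is labelled as control, and its air is not described. Each group is 1 library of pooled mice, which leaves no replicate check and allows no test. Intervals are at 95% throughout and cover the error of counting alone.

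The respiratory chain sits in the inner mitochondrial membrane. Complex I takes electrons from NADH, complex III passes them from ubiquinol to cytochrome c, and complex IV hands them to oxygen, while protons are pumped across the membrane. Complex V, the ATP synthase, lets the protons flow back and makes ATP. The mitochondrial genome encodes a core of complexes I, III, IV and V and is transcribed as long precursors that are cut into single messages, while the other subunits are made from nuclear genes. Photoreceptors pack mitochondria into their inner segments, and the retina is known as one of the tissues with the highest oxygen use.

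Cells were grouped by marker genes after clustering without the members and without any mitochondrial gene, so that the members did not shape the groups. The barcodes of the deposited files held 50081145 UMIs (unique molecular identifiers, each counting 1 RNA molecule) in control and 49773742 in OIR. After filtering, 8585 control cells (median 1648 UMIs) and 6132 OIR cells (median 2828.5) remained. Both libraries are labelled as retinal microglia, but rod-like cells made up most of each, with 6648 control and 3561 OIR cells, and microglia-like cells numbered 863 and 678. The other classes followed were the cone-like (313 and 652 cells), bipolar-like (298 and 492) and Müller glia-like cells (330 and 527), the last being the radial glia of the retina. The summed level of 10 rod markers was 60764 and 53523 CPM (UMIs of a gene per 1000000 UMIs of the class) in rod-like cells and 2110 and 2594 CPM in microglia-like cells, none of them at 0. The pools also differed in the Y-linked gene Ddx3y, at 25.5 and 8.02 CPM (log2 ratio -1.67, -2.13 to -1.22) in microglia-like cells. The libraries shared 89 barcodes. A cell was kept only if at most 10% of its UMIs came from mitochondrial genes, and this limit acts on the members themselves. It removed 45.9% of control and 14.3% of OIR cone-like cells, 35.4% and 6.89% of Müller glia-like cells, 21% and 11.7% of bipolar-like cells, 2.31% and 0.531% of rod-like cells, and 4% and 2.16% of microglia-like cells. Sums of mitochondrial members over each class followed are therefore given with and without it. Sums by cluster, depth or smaller class are given with the limit unless stated.

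**Figure D1:**
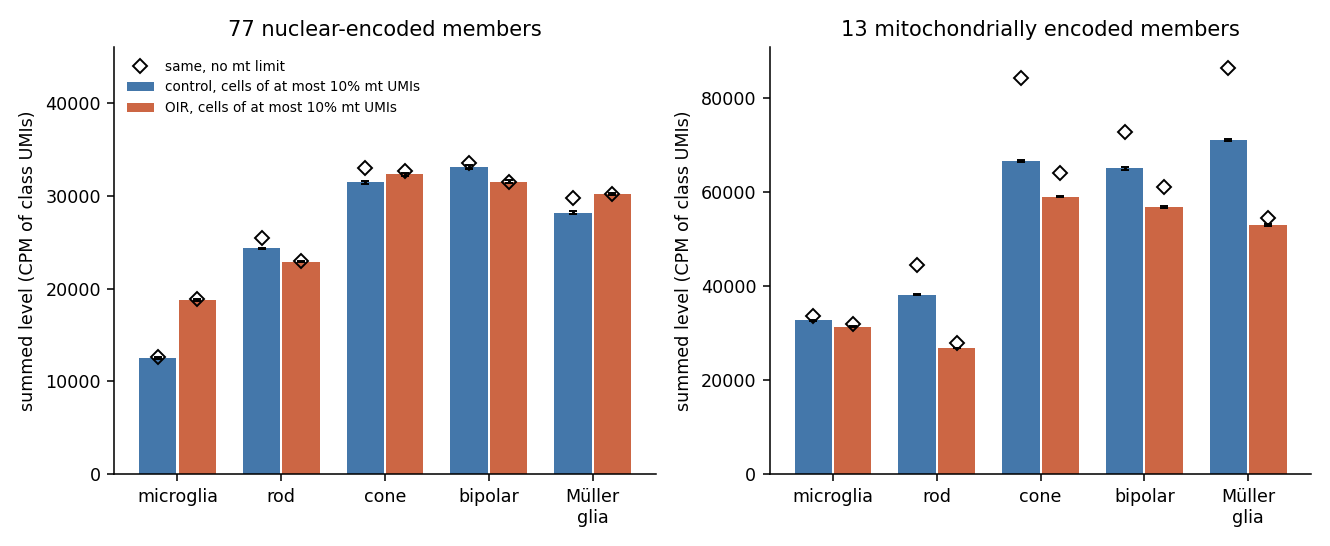
Summed level of the 77 nuclear-encoded members (left) and the 13 mitochondrially encoded members (right), in CPM of the UMIs of each class, in control (blue bars) and OIR (orange bars). Error bars are 95% counting intervals, and open diamonds give the same sums without the 10% mitochondrial limit. The nuclear-encoded sum stands apart between libraries in microglia-like cells, at 12548 and 18822 CPM, and the mitochondrial sum is lower in OIR in rod-like and Müller glia-like cells.

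In microglia-like cells the nuclear-encoded subunits stood higher in OIR while the mitochondrially encoded ones did not. The 77 nuclear members together took 12548 CPM in the control library and 18822 CPM in the OIR library (log2 ratio 0.58, 0.57 to 0.60). The 13 mitochondrial members took 32687 CPM in the control library and 31364 CPM in the OIR library (log2 ratio -0.060, -0.068 to -0.051), or 33664 and 32013 CPM without the mitochondrial limit. Of 82 members measured at 20 CPM or more in 1 library, 36 were at least 1.5-fold higher with an interval above 0, and 0 were at least 1.5-fold lower. All 36 are nuclear-encoded. Over all 6101 genes measured in the same cells, 12% were higher and 17.7% lower by this rule. The median log2 ratio of the 69 measured nuclear members was 0.60, and 66 of them lay above 0, beside a median of -0.11 over all genes. Scaling by the median of ratios in place of total UMIs moved that all-gene median to 0 and gave 42 members higher and 0 lower, and the split of all calls went from 40.3% to 53.6% higher. In single cells, the nuclear members took a median of 1.23% of UMIs in control (quartiles 1.03 and 1.54) and 1.99% in OIR (1.57 and 2.52). The lower quartile in OIR thus lay above the upper quartile in control.

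The nuclear-encoded sum was higher in OIR for each of the 4 complexes. For complex I, the NADH dehydrogenase, the nuclear sum was 4259.7 CPM in the control library and 6321 CPM in the OIR library (log2 ratio 0.57, 0.55 to 0.59), and 15 of 36 measured nuclear members were higher. Ndufv3 (ENSMUSG00000024038, chromosome 17, 31520115 to 31531331), an accessory subunit of the NADH-binding module, had the highest ratio of the members with at least 50 CPM, at 122 CPM in the control library and 282 CPM in the OIR library (log2 ratio 1.21, 1.09 to 1.33). Ndufa1 (ENSMUSG00000016427, chromosome X, 37187588 to 37191163), a small membrane subunit needed to build the complex, followed at 90.4 CPM in the control library and 208 CPM in the OIR library (log2 ratio 1.20, 1.06 to 1.34). Of the core subunits that carry flavin or iron-sulphur clusters, Ndufv1, which binds NADH, was at 49.0 and 49.1 CPM, Ndufs1 at 29.2 and 25.4 CPM and Ndufs7 at 119 and 130.3 CPM, and their ratios had intervals across 0. Ndufv2 (75.8 and 98.0 CPM) and Ndufs8 (85.3 and 114 CPM) stood higher in OIR, by less than 1.5-fold. The lowest ratios of complex I among members with at least 50 CPM were those of Ndufa6 (0.054) and Ndufa9 (0.057). Ndufb2, Ndufb8 and Ndufb9 were also among the 36, and each overlaps another annotated gene on the same strand, so their counts are uncertain.

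For complex III, the cytochrome bc1 complex, the nuclear sum was 1491 CPM in the control library and 2158 CPM in the OIR library (log2 ratio 0.53, 0.50 to 0.57), with 4 of 8 members higher. These were the small subunits Uqcrq (0.98), Uqcr10 (0.83), Uqcr11 (0.83) and Uqcrb (0.66). The large core proteins stayed near control, with Uqcrc1 at 87.9 and 96.2 CPM and Uqcrc2 at 98.6 CPM in the control library and 87.6 CPM in the OIR library (log2 ratio -0.17, -0.33 to -0.010). Uqcrfs1, the Rieske iron-sulphur protein, stood at 92.9 and 115 CPM, and Uqcrh, the hinge protein, at 470.4 and 546 CPM.

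Complex IV, cytochrome c oxidase, had the highest ratio of the nuclear sums, at 2829.5 CPM in the control library and 4453 CPM in the OIR library (log2 ratio 0.65, 0.63 to 0.68), and 9 of 10 measured nuclear members were higher. Cox5a, a matrix-side subunit, stood at 156 CPM in the control library and 319 CPM in the OIR library (log2 ratio 1.03, 0.93 to 1.14). Cox7b, encoded on the X chromosome, stood at 148 CPM in the control library and 303 CPM in the OIR library (log2 ratio 1.03, 0.92 to 1.14). The single exception was Cox7a2l, at 488 CPM in the control library and 368 CPM in the OIR library (log2 ratio -0.41, -0.48 to -0.33). Cox7a2l is known as a factor that joins complexes III and IV into supercomplexes rather than as a fixed subunit of either. In control it was the second most abundant nuclear member of complex IV by UMI count, after Cox8a at 570.4 and 881 CPM.

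For complex V the nuclear sum was 3968 CPM in the control library and 5889 CPM in the OIR library (log2 ratio 0.57, 0.55 to 0.59), and 8 of 15 measured nuclear members were higher. Atp5k, the e subunit of the membrane part, stood at 105 CPM in the control library and 213 CPM in the OIR library (log2 ratio 1.02, 0.89 to 1.16). Atp5g1, Atp5g2 and Atp5g3 encode the same c-ring protein. They stood at 203 and 391 CPM, 466 and 604 CPM and 162 and 271 CPM, log2 ratios of 0.95, 0.37 and 0.75. The catalytic head was nearer to control, with its alpha subunit Atp5a1 at 0.22 and its beta subunit Atp5b at 0.30. Atp5o, also among the 8, shares its strand with the overlapping genes Donson and Cryzl1, which makes its count uncertain.

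**Figure D2:**
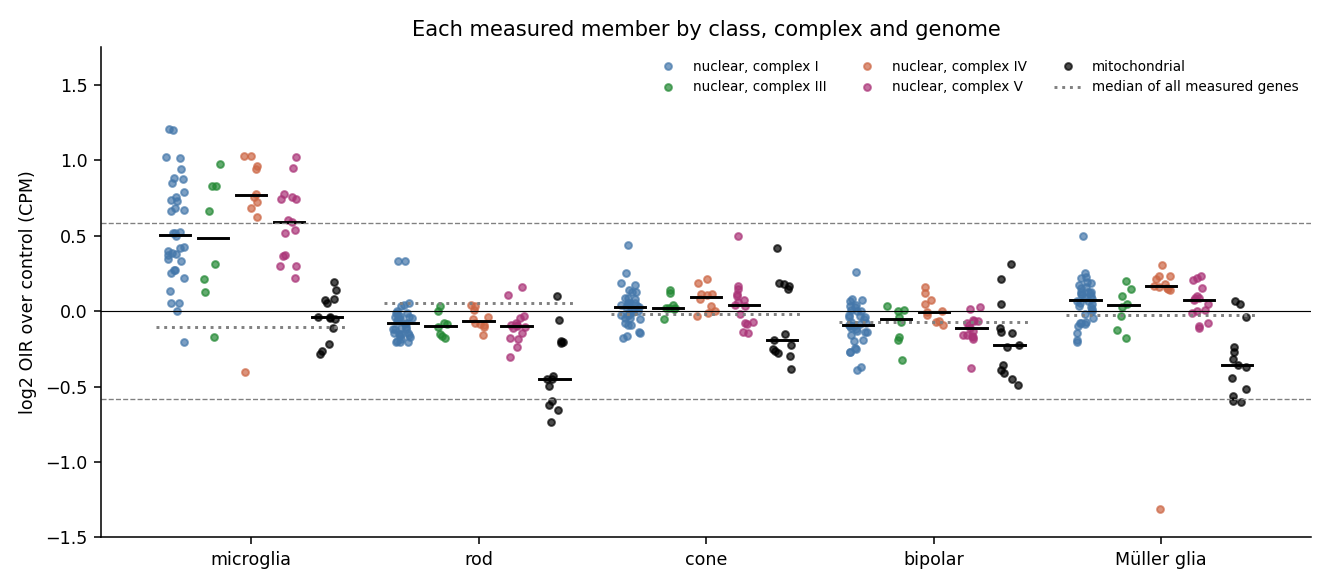
Log2 ratio of OIR over control for each measured member (points), by class, complex and genome, with the median of each group (black bars), the median of all measured genes (dotted grey) and the 1.5-fold limits (dashed). In microglia-like cells the nuclear-encoded members of each complex have medians of 0.49 to 0.77, and the mitochondrial members lie near 0. In rod-like cells the mitochondrial members lie lowest, with a median of -0.45.

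The microglia-like class is made of 3 clusters that the libraries fill unequally, and the nuclear-encoded sum was higher in OIR in each. A cluster led by Tmem119, a marker of resting microglia, held 674 control and 166 OIR cells. Its nuclear sum was 11975 and 16229 CPM (log2 ratio 0.44), with 23 members higher and 0 lower, against 8.28% and 9.37% of all genes. A shallower cluster led by Aif1 (162 and 281 cells) had 21547 and 27416 CPM (0.35), with 19 higher and 7 lower, against 11.2% and 4.35%. A cluster led by Mmp12, a macrophage elastase, had 27 control and 231 OIR cells and 13955 and 18314 CPM (0.39), with 17 higher and 1 lower, against 7.52% and 14.8%. It also held RNA of neutrophils, with S100a8 at 2889.9 and 712 CPM. Without the barcodes that a coarser clustering named neutrophil-like, the class still had 36 higher and 0 lower. The ratio within each cluster was smaller than over the whole class. The mitochondrial sum took no common direction, at 0.20 in the Tmem119-led cluster, -0.63 in the Aif1-led one and -0.20 in the Mmp12-led one.

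Depth and foreign RNA moved with the libraries as well. In cells with at least 5000 UMIs (594 control and 366 OIR) the nuclear sum was 12226 and 18089.9 CPM (log2 ratio 0.57), and in cells with 2000 to under 5000 UMIs 13987 and 23909.7 CPM (0.77). The 96 control and 120 OIR cells with 1000 to under 2000 UMIs had the smallest nuclear ratio, 0.42, and a mitochondrial ratio of -0.38. The level of Malat1, a nuclear RNA, was 19232 and 14961 CPM in microglia-like cells. The summed level of 6 red cell markers was 5.50 CPM in control, with 2 of them at 0, and 5533 CPM in OIR, with none at 0. The 12 microglia markers summed to 36216 and 24914 CPM and 6 cycling markers to 20.4 and 286 CPM, with none at 0. Monocyte markers (7) summed to 48.0 and 271 CPM and neutrophil markers (7) to 480.5 and 1186 CPM, also with none at 0. Cone markers (9) summed to 293 and 494 CPM, with none at 0. In OIR the nuclear-encoded sum was 5116 CPM in the 28 erythroid-like cells and 32311 CPM in cone-like cells, on either side of that of microglia-like cells. The part of these RNAs in the ratios was not tested.

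The lists of other mitochondrial genes had median log2 ratios below the 0.60 of the nuclear members in the same cells. For the biogenesis list the median lay below 0. Over all genes measured there, 12% were higher and 17.7% lower, with a median of -0.11. Of 8 measured genes of complex II and the electron carriers, 2 were higher and 0 lower, with a median of 0.38. Cycs, cytochrome c, stood at 97.9 and 164 CPM (log2 ratio 0.74, 0.60 to 0.88), and Sdha, the flavoprotein of complex II, at 84.5 and 75.0 CPM (log2 ratio -0.17, -0.35 to 0.0022). Among 19 measured assembly factors 4 were higher and 0 lower (median 0.23), led by Pet100 at 48.2 and 89.5 CPM (log2 ratio 0.89, 0.70 to 1.09). Of 15 measured genes of the TCA cycle and pyruvate dehydrogenase, 0 were higher and 0 lower (median 0.17). Of 10 measured genes of mitochondrial biogenesis and mitochondrial transcription, 1 was higher and 2 were lower (median -0.43). Slirp, which stabilises mitochondrial messages, stood at 44.0 and 86.8 CPM (log2 ratio 0.98, 0.78 to 1.19), and Polg, the mitochondrial DNA polymerase, at 29.8 and 16.5 CPM (log2 ratio -0.85, -1.20 to -0.51). Proteins of the mitochondrial ribosome had 11 of 70 higher and 0 lower (median 0.31), and those of the cytosolic ribosome 5 of 83 higher and 0 lower (median 0.14).

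The 5 members with the highest ratios in microglia-like cells lie on several chromosomes, with Ndufa1 and Cox7b both on X. The promoters of 3 of the 5 are shown. They are the 2 highest, Ndufv3 and Ndufa1, and the fifth, Atp5k, which was picked because its promoter holds the NRF1 letters. Cox5a and Cox7b, which rank between them, do not hold the NRF1 letters and are not shown. Of these, Cox5a holds ACGTG and GCGTG, and Cox7b holds none of the motifs searched. Each printed promoter runs from 250 bases before to 50 bases after the start site given by RefSeq (build GRCm38), read 5′ to 3′ on the strand of the gene. The promoters are those of Ndufv3 (chr17:31519865-31520164, plus strand), Ndufa1 (chrX:37191189-37191488, minus strand) and Atp5k (chr5:108434350-108434649, minus strand). Capitals mark ACGTG or GCGTG (the core of the hypoxia response element), the 10-base palindrome of NRF1, a regulator of respiratory chain genes, and CCGGAAG (bound by ETS factors), on either strand.
Ndufv3: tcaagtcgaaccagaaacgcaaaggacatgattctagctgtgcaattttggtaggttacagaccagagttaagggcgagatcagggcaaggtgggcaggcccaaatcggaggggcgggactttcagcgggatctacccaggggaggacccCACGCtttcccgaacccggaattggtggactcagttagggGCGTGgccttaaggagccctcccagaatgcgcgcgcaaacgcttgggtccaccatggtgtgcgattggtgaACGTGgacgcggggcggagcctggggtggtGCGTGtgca
Ndufa1: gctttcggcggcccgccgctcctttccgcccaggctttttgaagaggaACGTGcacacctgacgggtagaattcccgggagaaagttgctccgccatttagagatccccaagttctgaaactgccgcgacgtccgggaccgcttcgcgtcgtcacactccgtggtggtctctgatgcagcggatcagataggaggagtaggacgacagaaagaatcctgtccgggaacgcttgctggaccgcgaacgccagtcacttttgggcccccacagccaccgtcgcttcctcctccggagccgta
Atp5k: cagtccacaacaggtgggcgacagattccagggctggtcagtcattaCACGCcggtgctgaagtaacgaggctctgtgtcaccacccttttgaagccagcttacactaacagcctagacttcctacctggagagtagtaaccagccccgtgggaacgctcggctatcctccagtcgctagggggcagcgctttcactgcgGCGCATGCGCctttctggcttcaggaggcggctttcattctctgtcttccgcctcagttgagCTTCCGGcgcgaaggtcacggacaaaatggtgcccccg
Ndufv3 held 1 ACGTG and 3 GCGTG, Ndufa1 held 1 ACGTG, and Atp5k held 1 NRF1, 1 ETS and 1 GCGTG match. Among 68 promoters matched to 63 of the 76 nuclear-encoded symbols, the NRF1 palindrome was found in 5 (7.35%, against 0.971% of 32851 promoters of the same length and 1.33% of those of protein-coding genes). The 5 were those of Atp5k, Cox6a1, Uqcrc1, Atp5g2 and Ndufa11. CCGGAAG was found in 14 (20.6%, against 8.86% and 11.6%) and AAGATGGC, bound by YY1, in 9 (13.2%, against 2.75% and 3.05%). ACGTG was found in 16 (23.5%, against 19.6% and 20.9%) and GCGTG in 34 (50%, against 32.4% and 38.5%). GCGTG can lie within longer GC-rich words, and no match was weighed against base composition. In microglia-like cells the log2 ratios of the 5 members with an NRF1 match were 1.02 (Atp5k), 0.69 (Cox6a1), 0.52 (Ndufa11), 0.37 (Atp5g2) and 0.13 (Uqcrc1). The part of these motifs in the ratios was not tested.

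Summed over all rod-like cells, the nuclear-encoded members stood close to control and mitochondrial ones were lower in OIR. The mitochondrial sum was 38141 CPM in the control library and 26816 CPM in the OIR library (log2 ratio -0.51, -0.51 to -0.50), and without the mitochondrial limit 44435 CPM in the control library and 27822 CPM in the OIR library (log2 ratio -0.68, -0.68 to -0.67). The nuclear sum was 24354 CPM in the control library and 22925 CPM in the OIR library (log2 ratio -0.087, -0.094 to -0.080). Of 82 measured members, 4 were lower by the same rule and 0 higher, against 1.41% lower and 4.37% higher among 6592 genes. All 4 are mitochondrial. The complex I core subunit mt-Nd2 stood at 1715 CPM in the control library and 1030.02 CPM in the OIR library (log2 ratio -0.74, -0.77 to -0.70). Cytochrome b of complex III, mt-Cytb, stood at 4638 CPM in the control library and 2949 CPM in the OIR library (log2 ratio -0.65, -0.67 to -0.63). The a subunit of complex V, mt-Atp6, stood at 7489 CPM in the control library and 4855 CPM in the OIR library (log2 ratio -0.63, -0.64 to -0.61). The third core subunit of complex IV, mt-Co3, stood at 7844 CPM in the control library and 5182 CPM in the OIR library (log2 ratio -0.60, -0.61 to -0.58), while mt-Co1, the catalytic subunit, stood at 5019.6 CPM in the control library and 4332 CPM in the OIR library (log2 ratio -0.21, -0.23 to -0.20). Among nuclear members the highest ratios were those of Ndufa3 (0.33) and Ndufv3 (0.33) and the lowest those of Atp5b (-0.31) and Atp5f1 (-0.24), so all lay within 1.5-fold.

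The lower mitochondrial level was seen in rods of every depth. Rod-like cells with 1000 to under 2000 UMIs (3917 control and 1729 OIR) held 23314 and 11656 CPM of mitochondrial members, a log2 ratio of -1.0. Those with at least 5000 UMIs (692 and 530) held 53309.8 and 38794 CPM, a ratio of -0.46. Below 5000 UMIs the nuclear-encoded sum was lower in OIR too, by ratios of -0.21 to -0.41 against -0.041 above it. The mitochondrial limit bears on the deepest group, which without it held 822 control and 542 OIR cells. Its ratios were then -0.67 for mitochondrial and -0.11 for nuclear-encoded members. Malat1 was higher in shallower cells, at 145891 and 141110 CPM in rods under 1000 UMIs. With 2000 to under 5000 UMIs Malat1 differed between libraries, at 87374 and 112870 CPM, and its part in the difference was not tested. Over all rod-like cells Malat1 stood at 84725 and 86208 CPM.

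**Figure D3:**
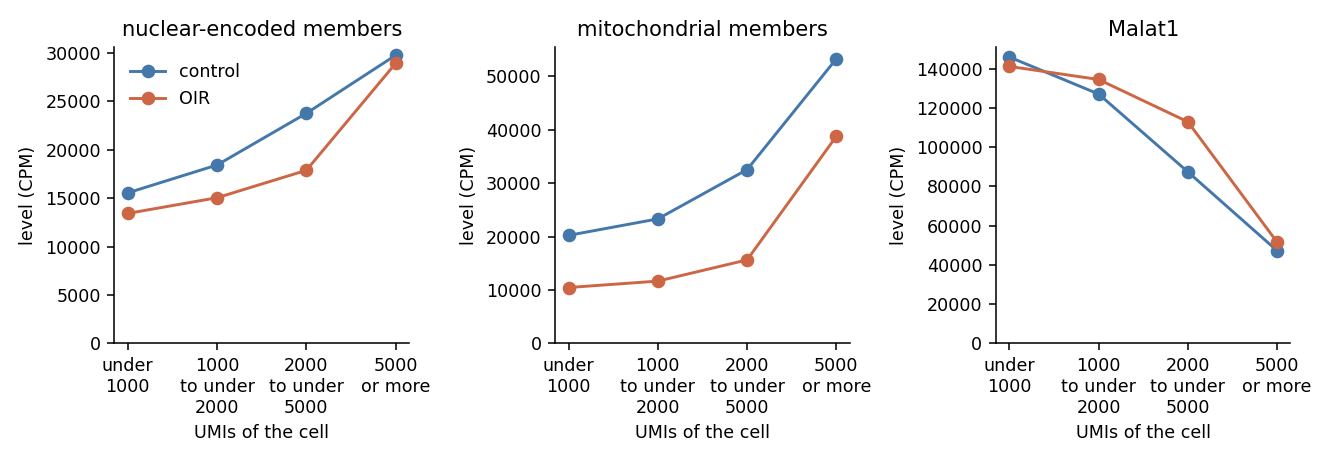
Level in rod-like cells, in CPM, of the nuclear-encoded members (left), the mitochondrial members (middle) and Malat1 (right), for cells grouped by their number of UMIs, in control (blue) and OIR (orange). The mitochondrial level is lower in OIR in all 4 depth groups, and the nuclear-encoded level nearly meets control in cells with at least 5000 UMIs, at 29754 and 28914 CPM.

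Rod-like cells fell into 10 clusters, and the mitochondrial sum was lower in OIR in each, by log2 ratios from -1.35 to -0.22. The cluster nearest to control was led by E2f6 and held 137 control and 1465 of the 3561 OIR cells. Its nuclear-encoded sum was 22174 and 22194 CPM, and its mitochondrial sum 29485 and 25239 CPM. Without that cluster the ratios of the whole class were -0.048 for nuclear and -0.44 for mitochondrial members, and 2 members were lower in place of 4. The deepest cluster, led by Gngt1 (284 and 124 cells), had a nuclear-encoded ratio of 0.050 and a mitochondrial one of -0.38. Before the mitochondrial limit it held 406 control and 130 OIR cells. In all the other clusters the nuclear-encoded sum was lower in OIR, by log2 ratios from -0.39 to -0.13, with intervals below 0. These clusters had 5 to 26 members of either genome lower, against 1.90% to 3.34% of all genes.

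In Müller glia-like cells the mitochondrial members were lower in OIR and the nuclear ones stood close to control. These cells also carried rod RNA, with rod markers at 31524 and 35057 CPM in control and OIR, above the level of their own markers, and cone markers at 1302 and 3009 CPM, none at 0. The mitochondrial sum was 71007 CPM in the control library and 52958 CPM in the OIR library (log2 ratio -0.42, -0.43 to -0.42), and 86352 and 54379 CPM without the mitochondrial limit (log2 ratio -0.67). The nuclear sum was 28204 CPM in the control library and 30243 CPM in the OIR library (log2 ratio 0.10, 0.091 to 0.11), or 0.022 without the limit. Of 83 measured members 0 were higher and 3 lower, against 4.95% and 8.98% of 6806 genes. The lower ones were mt-Nd2 at 3584 CPM in the control library and 2370.3 CPM in the OIR library (log2 ratio -0.60, -0.63 to -0.57), mt-Co3 at 13716 CPM in the control library and 9054 CPM in the OIR library (log2 ratio -0.60, -0.61 to -0.58), and Cox6b2. Cox6b2, an isoform of the cytochrome c-facing subunit best known from testis, stood at 44.4 CPM in the control library and 17.9 CPM in the OIR library (log2 ratio -1.31, -1.62 to -1.0), on 194 and 168 UMIs. The Müller glia markers also differed in these cells, with a summed level of 20063 and 9769 CPM for 10 genes, none at 0. The part of these markers and of rod and cone RNA was not tested. The cluster led by Sox2 (259 and 389 cells) had a mitochondrial ratio of -0.40. The cluster led by Ndufa4l2 (71 and 138) had one of -0.56.

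Cone-like and bipolar-like cells gave no member past 1.5-fold in either direction. In cones this compares with 2.79% of 6477 genes higher and 1.95% lower, and in bipolar cells with 4.01% and 6.23% of 7207. The cone mitochondrial sum was 66618 CPM in the control library and 58948 CPM in the OIR library (log2 ratio -0.18, -0.18 to -0.17). Without the limit it was 84234 and 63922 CPM, a log2 ratio of -0.40. The nuclear sum was 31469.9 and 32311 CPM, and its small ratio of 0.038 took the other sign without the limit (-0.015). The highest cone ratios among nuclear members were those of Atp5k, at 342 CPM in the control library and 483 CPM in the OIR library (log2 ratio 0.50, 0.42 to 0.58), and Ndufv3, at 338 CPM in the control library and 458 CPM in the OIR library (log2 ratio 0.44, 0.36 to 0.52). In bipolar-like cells the mitochondrial sum was 64964 CPM in the control library and 56840.4 CPM in the OIR library (log2 ratio -0.19, -0.20 to -0.18) and the nuclear sum 33087 CPM in the control library and 31528 CPM in the OIR library (log2 ratio -0.070, -0.082 to -0.058). Among the lowest nuclear ratios there were those of Ndufv1 (-0.39), Atp5b (-0.38) and Uqcrc1 (-0.33). Without the mitochondrial limit the bipolar mitochondrial sum was 72751 and 60983 CPM, a log2 ratio of -0.25. Malat1 stood at 40758 and 54274 CPM in cones and at 46556 and 52922 CPM in bipolar cells.

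The mitochondrial transcripts did not move as a block. In every class mt-Nd2, mt-Atp6 and mt-Cytb were among the 4 lowest log2 ratios of the 13. In all 5 classes mt-Co1, mt-Co2, mt-Nd4l, mt-Nd5, mt-Nd6 and mt-Atp8 made up a larger share of the mitochondrial members in OIR. Some of these differences were small, down to a log2 share ratio of 0.0068 for mt-Nd4l in microglia-like cells. The share of mt-Co1 was 13.2% and 16.2% in control and OIR rod-like cells, 12.1% and 15.8% in Müller glia-like cells, 13.9% and 17.4% in cones, 16.7% and 23.8% in bipolar cells and 15.5% and 16.8% in microglia-like cells. By level, mt-Co1 stood higher in OIR bipolar-like cells, at 10866 CPM in the control library and 13502 CPM in the OIR library (log2 ratio 0.31, 0.29 to 0.33), and lower in OIR rods, as given above. The share of mt-Nd2 was 4.5% and 3.84% in rods and 5.50% and 4.70% in microglia-like cells. Other members changed place between classes: mt-Nd1 had the lowest ratio of the 13 in bipolar-like cells (-0.49) and the second highest in microglia-like cells (0.14). The classes of a library share its preparation, so what they have in common is 1 observation on 2 libraries and not 5. The pairs mt-Atp8 and mt-Atp6, and mt-Nd4l and mt-Nd4, lie on shared messages and overlap, so the split of their counts is uncertain.

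**Figure D4:**
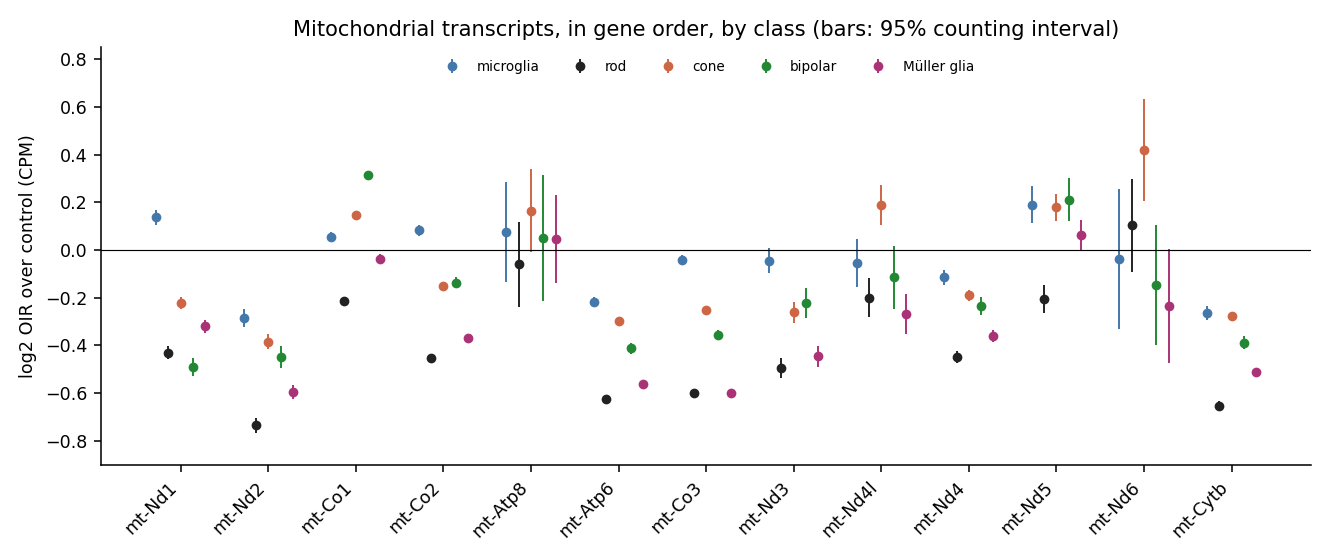
Log2 ratio of OIR over control for each of the 13 mitochondrial members, in their order along the mitochondrial genome, in microglia-like (blue), rod-like (black), cone-like (orange), bipolar-like (green) and Müller glia-like cells (purple), with 95% counting intervals. The ratio of mt-Nd2 lies between -0.74 and -0.29, and that of mt-Co1 between -0.21 and 0.31.

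The balance between the genomes leaned towards the nuclear side in OIR in all 5 classes. Nuclear UMIs per mitochondrial UMI of the members were 0.384 in control and 0.600 in OIR in microglia-like cells and 0.639 in control and 0.855 in OIR in rods. They were 0.472 in control and 0.548 in OIR in cones, 0.509 in control and 0.555 in OIR in bipolar cells and 0.397 in control and 0.571 in OIR in Müller glia. In microglia the difference lay in the nuclear sum, and in rods and Müller glia in the mitochondrial one. The ratio was higher in OIR for each of the 4 complexes in each class, with and without the mitochondrial limit. Complex V in microglia went from 0.652 to 1.12.

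A few nuclear members leaned one way in most classes. Ndufv3 had an interval above 0 in all 5, from 0.26 in bipolar cells to 1.21 in microglia. Atp5k, Ndufa3, Cox7c and Atp5g2 did so in 4. Intervals below 0 in 4 of 5 classes were found for Uqcrc2, a core protein of complex III, and for Atp5b and Atp5a1, the catalytic head of complex V. How often all genes do so was not counted, so these leanings cannot be called particular to the members. At this depth an interval can exclude 0 at a small ratio. The classes of a library also share its preparation, so they are not independent observations. Cox7a2l was the lowest nuclear member in microglia and stood at 0.16 in bipolar and 0.14 in Müller glia-like cells.

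Against microglia-like cells, the median nuclear-encoded member stood higher per UMI in the other 4 classes in both libraries, and the median of all genes, as a mean over libraries, lay above 0 as well. The median log2 ratio of the 69 nuclear members, as a mean over libraries, was 1.08 in cones (all genes 0.53), 1.11 in bipolar cells (0.71), 0.92 in Müller glia (0.42) and 0.65 in rods (0.59). The 4 comparisons share the same microglia-like cells. Of 82 members measured in both libraries, 48 were at least 1.5-fold higher in cones in both libraries (against 43.6% of 7281 genes), 49 in bipolar cells (48.0% of 7671), 48 in Müller glia (38.3% of 7128) and 18 in rods (44.4% of 7367). Of these, 40, 43, 39 and 18 are nuclear-encoded. In no class was a member 1.5-fold lower in both libraries, against 24.2%, 21.2%, 21.4% and 23.6% of genes. The rod count, 18 of 82, lay below the share of all genes. Taking the mean of each cell's CPM in place of summed counts gave 7 higher and 7 lower in rods. The median log2 ratio of rods over microglia among nuclear members was 0.95 in control and 0.28 in OIR, beside the higher nuclear sum of OIR microglia.

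Among the members with the largest mean log2 ratios over both libraries were Ndufa10 (1.71), Ndufb11 (1.67), Ndufv1 (1.55) and Ndufa5 (1.49), all of complex I. Ndufa10, an accessory subunit of its membrane arm, was in rod-like cells at 313 CPM against 80.1 CPM in control microglia-like cells (log2 ratio 1.97, 1.84 to 2.09), and 280.3 against 102 CPM in OIR (1.46, 1.34 to 1.58). At the other end lay Atp5e, the epsilon subunit of complex V, at 343 CPM against 425 CPM in control microglia-like cells (log2 ratio -0.31, -0.38 to -0.25), and 331 against 711 CPM in OIR (-1.10, -1.16 to -1.04). Cox7a2l was at 291 CPM against 488 CPM in control microglia-like cells (log2 ratio -0.75, -0.81 to -0.68), and 273 against 368 CPM in OIR (-0.43, -0.51 to -0.35). Cox6b1 (-0.18), Atp5g2 (-0.15) and Atp5d (-0.091) completed the 5 smallest mean ratios.

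**Figure D5:**
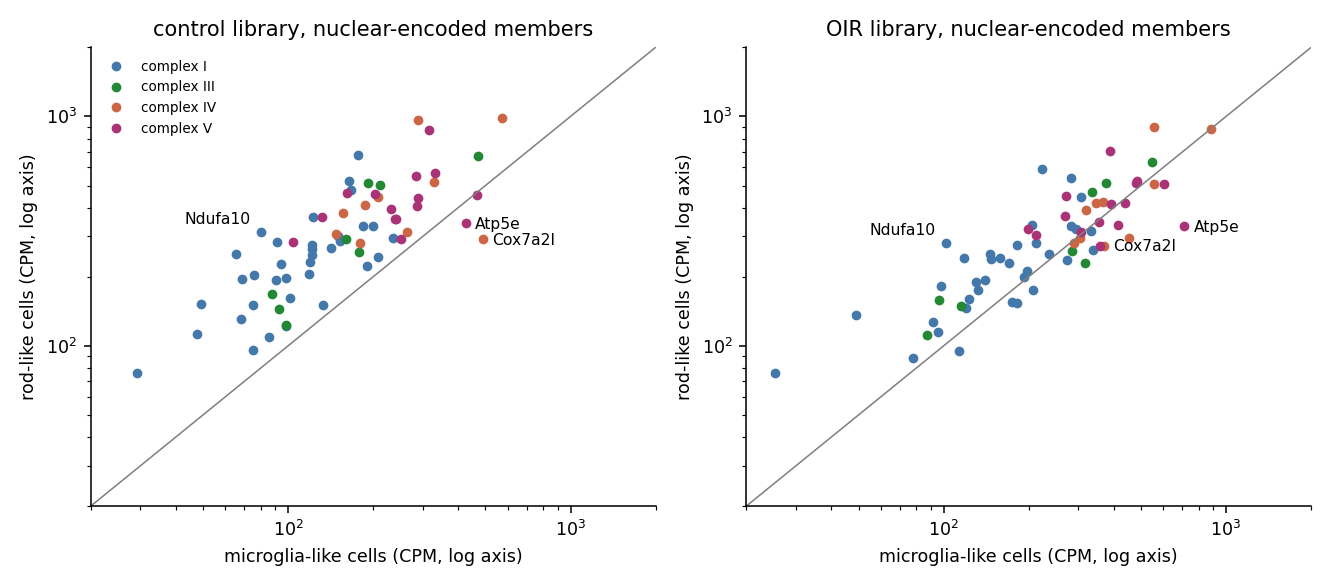
Level of the nuclear-encoded members measured in both libraries and reported here in rod-like cells against microglia-like cells, on log axes in CPM, in control (left) and OIR (right), coloured by complex. The grey line marks equal levels. Ndufa10 lies above the line in both libraries (313 and 280.3 CPM in rods, 80.1 and 102 CPM in microglia), and Atp5e and Cox7a2l lie below it.

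The isoforms of complex IV subunits known from muscle and testis stood low beside the general ones. Values of isoforms are CPM, not divided by gene length. Cox6a1, the general isoform of a complex IV subunit, stood at 281 and 282 CPM in rods and 179 and 289 CPM in microglia. Its heart and muscle counterpart Cox6a2 had 0 UMIs in rods of either library, and stood at 4.77 and 8.76 CPM in microglia, on 33 and 59 UMIs. Cox7a2 stood at 447 and 420.2 CPM and the muscle isoform Cox7a1 at 1.10 and 1.66 CPM in rods. Cox8a stood at 1777 and 1770.4 CPM and Cox8b at 3.58 and 2.04 CPM in bipolar cells, the class where Cox8b was highest. Cox6b1 stood at 467 and 523 CPM and Cox6b2 at 44.4 and 17.9 CPM in Müller glia, the class where Cox6b2 was highest. Cox7b2 and Cox8c, both known from testis, had at most 1 UMI in any class and library. The c-ring genes differed in rank: Atp5g2 led in microglia, as given above, and in bipolar cells Atp5g1, Atp5g2 and Atp5g3 stood at 656 and 587 CPM, 652 and 626 CPM and 861 and 757 CPM. Besides Cox6a2, Cox7a1, Cox7b2, Cox8b and Cox8c, Atp5s (a factor that couples complex V and not a subunit) stayed under 20 CPM in every class.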

How the data were processed

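The deposited matrices hold UMI counts of each gene in each barcode, not normalised, which the authors made with Cell Ranger 3.0.2 on build mm10, per the submitters' processing notes; the feature and barcode files deposited beside them hold names only. Which end of each message was read is not given in the sources used here. Barcodes with at least 500 genes were kept. Scrublet called 1 and 0 doublets, so the top-scoring 938 control (8.66%) and 424 OIR barcodes (5.82%) were removed, at 0.8% per 1000 barcodes. Cells were clustered with scanpy 1.11.5 (2000 variable genes, 30 components, 20 neighbours, Leiden resolution 1), without members and mitochondrial genes. A cluster was named by the class whose markers led it, with at least 3 markers in 10% of its cells; leading genes had to be found in 25% of its cells. These naming limits were set with the data at hand, and other clusterings give other cell numbers. Counts were then summed per class and library and scaled to CPM. Ratios carry exact conditional binomial intervals (95%). Named genes were all mitochondrial members, the 5 highest and 5 lowest nuclear ratios per class at 50 CPM or more, the 3 most abundant members of a complex in rods and microglia, the 5 largest and smallest rod over microglia ratios, and isoforms; other members were named after their values were seen, and a few genes are not reported here. The members, lists and tests were chosen with earlier results of these data known. The ratio step was tested on simulated counts. Alternatives were other mitochondrial limits, scalings, level and fold limits, clusterings, depths and clusters. Gene positions came from GENCODE M21.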

Additional observations from a re-analysis of the deposited data

Results flagged for a closer look

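The nuclear-encoded sum took opposite directions between classes under the same contrast, with intervals that exclude 0 on both sides. Its log2 ratio of OIR over control was 0.58 in microglia-like, 0.10 in Müller glia-like and 0.038 in cone-like cells, and -0.087 in rod-like and -0.070 in bipolar-like cells. The differences between the last 4 are small, and the cone value changed sign under some settings. Of the single members, only mt-Co1 met the size limits set for flagging, at 0.31 in bipolar-like and -0.21 in rod-like cells. Other members also had intervals on both sides of 0. Among them were Atp5b (above 0 in 1 class and below in 4) and Cox7a2l (2 and 2). With 1 library per group these differences between classes were not tested.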

How the results depend on the processing

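No paired analysis was possible because each group is 1 library. The 36 higher and 0 lower members of microglia-like cells held to 34 to 42 and 0 under every mitochondrial limit, scaling, clustering, level limit and depth tried on the whole class, and all 36 were among the calls except with doublets kept (35), cells of at least 2000 UMIs (35) and cells of at least 5000 UMIs (34). At 2-fold, 7 were higher. Single clusters gave 23 higher (Tmem119-led), 19 higher and 7 lower (Aif1-led), and 17 higher and 1 lower (Mmp12-led). The mitochondrial sum of microglia, -0.060, turned to 0.036 with the median of ratios, to 0.20 in the Tmem119-led cluster and to 0.14 without the Mmp12-led cluster.

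In rod-like cells the 4 lower members became 8 without a mitochondrial limit, at a limit of 20% and with the mean of cell CPM, 0 at a limit of 5% and at 2-fold, and 2 without the E2f6-led cluster or with cells of at least 5000 UMIs. In Müller glia the 3 lower members became 8 without a limit, 6 at 20%, 5 with members among the clustering genes, and 1 at 5%, at 2-fold, with the median of ratios, the mean of cell CPM, doublets kept or the Sox2-led cluster alone; 2 were higher at 5% and 1 with no level minimum. In cones 1 member was lower without a limit or at 20%, and 1 higher at 5% or with no level minimum. In bipolar cells 2 were lower at 5%. The cone nuclear sum of 0.038 turned to -0.015 without a limit, -0.017 at 20% and -0.027 with the mean of cell CPM. Against microglia, 2-fold left 6 members higher in rods, 23 in cones, 24 in bipolar cells and 15 in Müller glia. In rods the mean of cell CPM gave 7 higher and 7 lower, and a limit of 5% gave 2 lower. A mitochondrial limit removes the cells with the highest mitochondrial levels by construction, and a 2-fold limit calls fewer genes by construction. The cause of the other changes was not tested. The settings on neutrophil barcodes, the Mmp12-led and E2f6-led clusters, the Sox2-led cluster and the depth limits were chosen after seeing the data. The direction of every called member recomputed held in all settings. Across settings, 530 ratios of single members and 96 of sums moved out of the counting interval of their first value, which is narrow at this depth, and the 6 sums that changed sign did so too, while 1280 and 42 did not. The 20 CPM minimum leaves 7 or 8 of the 90 members without a count in each class.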

Other observations

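Classes with under 100 cells in a library were described but not counted for members. Border macrophage-like cells (18 control and 94 OIR) held a nuclear-encoded sum of 13256 and 21911 CPM and a mitochondrial sum of 36678 and 36013 CPM, so that both myeloid classes stood higher in OIR in the nuclear sum. Without the mitochondrial limit (19 and 97 cells) the mitochondrial sum of border macrophage-like cells was 46812 and 36727 CPM. The highest nuclear-encoded sums of any class in both libraries were those of pigment epithelium-like cells (30 and 46), at 48709 and 45794 CPM, with mitochondrial sums of 39594 and 49141 CPM. Amacrine-like cells (25 and 21) held nuclear-encoded sums of 33544 and 42635 CPM, and endothelial-like cells (48 and 15) 22157 and 23052 CPM. Erythroid-like cells, red cells and their precursors, which lose their mitochondria as they mature, held the lowest sums. In the 28 OIR cells these were 5116 CPM for nuclear and 5550.03 CPM for mitochondrial members, and the 7 control cells gave 5167 and 12735 CPM.

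Among the lists outside the chain, the assembly factor Ndufaf6 stood at 20.5 and 41.2 CPM (log2 ratio 1.01, 0.81 to 1.22) in rod-like cells, in control and OIR, a larger ratio than that of any nuclear-encoded subunit there. In bipolar-like cells Slirp stood at 97.2 and 164 CPM (log2 ratio 0.76, 0.55 to 0.96) and the complex IV assembly factor Coa6 at 40.8 and 21.1 CPM (log2 ratio -0.95, -1.36 to -0.54). Etfb, a subunit of the electron transfer flavoprotein that feeds electrons from fatty acid oxidation, stood at 71.2 and 118 CPM (log2 ratio 0.74, 0.57 to 0.90) in microglia-like cells and at 98.0 and 56.0 CPM (log2 ratio -0.81, -0.99 to -0.62) in Müller glia-like cells. In Müller glia the TCA cycle gene Suclg2 stood at 24.5 and 13.7 CPM (log2 ratio -0.83, -1.21 to -0.45). Proteins of the cytosolic ribosome had a median log2 ratio of 0.34 in Müller glia, with 82 of 83 above 0, beside 0.089 for the nuclear-encoded subunits.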
